A study of Mus musculus with 30 samples.

Results

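Imprinted genes are transcribed mainly from the chromosome inherited from 1 parent, because a nearby control region carries DNA methylation that was set in either the egg or the sperm. The zinc finger protein ZFP57 and its partner TRIM28 keep that methylation in place after fertilization, and mouse embryonic stem (ES) cells inherit it. Whether the cells of this study kept it was not analysed here. Several of these genes set fetal growth, and within a cluster the genes of the maternal and the paternal chromosome often depend on the same control region in opposite ways.

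A list of 45 known mouse imprinted genes from 22 clusters was read from the RNA tables of the study. It holds 22 genes expressed from the paternal allele, 22 from the maternal allele and Gnas, whose allele depends on the isoform; cluster and allele are background knowledge and were not measured. Of the 45 genes, 44 had a value among the 20286 gene symbols of the tables, and Mirg had no row. At least 1 FPKM (fragments scaled to transcript length and to library size, so that levels of genes can be set side by side) in either genotype was reached by 34 of them, here called measured, as were 12053 genes in all.

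The study compared ES cells, labelled as strain C57BL/6-ICR, that carry floxed alleles of Tdg (Tdg fl/fl) with Tdg -/- ES cells, which lack thymine DNA glycosylase, the enzyme that removes 5-formylcytosine and 5-carboxylcytosine made from methylated cytosine by TET enzymes. PolyA RNA was sequenced from 2 libraries of each genotype at 51 bp, and the deposited tables give 1 value per gene and genotype. The values therefore have no spread between replicates and no test, the depth behind them is unknown, and alleles are not told apart. The derivation of the Tdg -/- line, whether it is 1 clone, and the growth conditions of the cells used for RNA are not stated in the labels. Changes are log2((Tdg -/- FPKM + 1)/(fl/fl FPKM + 1)), a scale on which differences of weakly expressed genes come out too small.

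Tdg itself had 22.1 FPKM in the fl/fl and 9.48 FPKM in the Tdg -/- table, 42.9% of the fl/fl level; the labels do not name the deleted exons. All 8 ES cell markers of a fixed list were measured, with summed levels of 6936 and 7090 FPKM in fl/fl and Tdg -/- cells. Dppa5a alone made up 4571 and 4691 FPKM of these sums, and the changes of the 8 lay between -0.05 and 0.24. Of 12 fibroblast markers, which would show feeder cells, 4 were measured, and they had changes between -0.33 and -0.28; the list summed to 11.9 and 8.89 FPKM, and Lum was listed at 0 in both genotypes. Of 12 trophoblast markers 5 were measured (sums of 33.6 and 29.98 FPKM, Tpbpa and Prl3d1 listed at 0 in both), and of 10 neural markers 6 (sums of 152 and 164 FPKM, of which Stmn2 made up 121 and 130). Among the neural markers Fabp7, a fatty acid binding protein gene of neural progenitors, was at 0.132 FPKM in fl/fl against 5.28 FPKM in Tdg -/- cells. Its change of 2.47 was the highest of all measured genes, while the other 5 measured ones lay within 0.5. Of the 6, 3 were above 0 and 3 below, the lowest being Neurog1 at -0.46. Fabp7 and Sox1 passed the minimum through their Tdg -/- values alone, so they could only count as higher. Whether neural cells were present or had a part in the values of the imprinted genes was not tested.

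The imprinted genes differed in both directions, and the genes that differed most were a small set at 6 places in the genome. H19, Grb10 and Zdbf2 had a change of 1 or more, which is 2-fold in FPKM + 1, and made 3 of the 34 measured genes, against 0.183% of all measured genes. None of the 34 had a change of -1 or less, against 0.174% of all, and Igf2 reached -0.99. In FPKM alone, Gatm too was more than 2-fold higher (2.01 times the fl/fl value) and Igf2 more than 2-fold lower (0.459 of it). The share of all measured genes past 2-fold in FPKM alone was not counted. With a smaller limit of 0.5 on the log2 scale, Copg2 and H13 joined the higher ones, so that 5 of 34 were higher (1.82% of all measured genes), and Igf2, Mcts2 and Peg10 were lower, 3 of 34 (1.63% of all). H19 and Gatm passed the minimum through their Tdg -/- values alone, so they could only count as higher. The other 26 lay within 0.5. In RNA from whole cultures, a lower level per cell and fewer cells that express a gene cannot be told apart. The median change was 0.02 over the measured imprinted genes and -0.02 over all measured genes. Of the 34 genes, 7 lay outside the range of up to 25 neighbouring genes, namely H19, Igf2, Grb10, Zdbf2, Peg10, Ascl2 and Gatm, against 7.8% of 11971 measured genes placed on a chromosome.

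**Figure D1:**
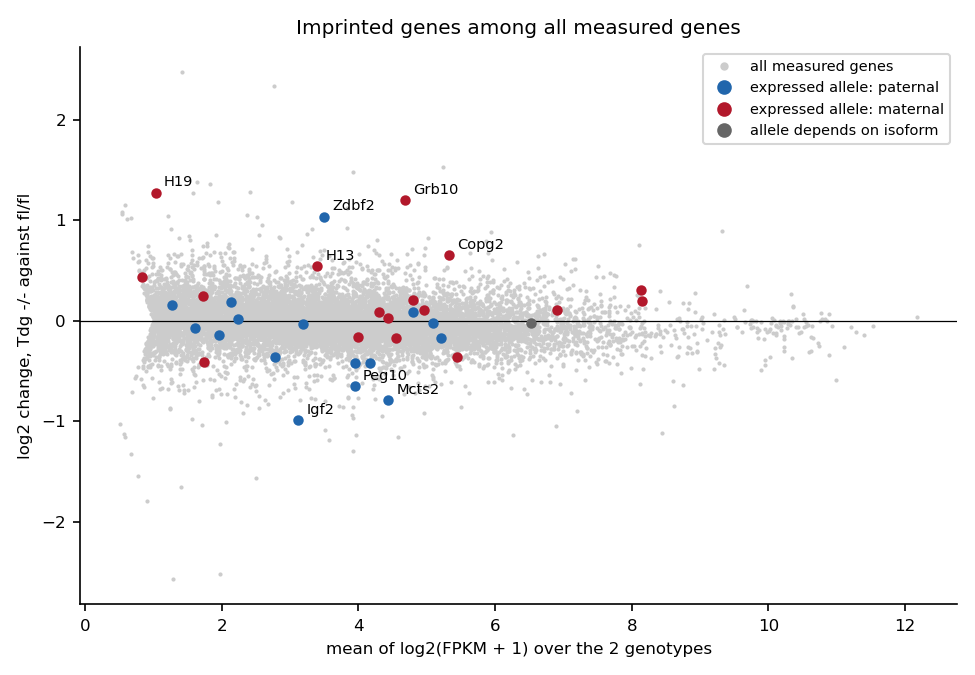
Each dot is 1 of the 12053 measured genes, with its mean level over both genotypes (log2 of FPKM + 1) on the horizontal axis and its log2 change in Tdg -/- against fl/fl cells on the vertical axis; imprinted genes are coloured by expressed allele. The 8 named genes are those that differ by at least 0.5, and most other imprinted genes lie inside the grey cloud.

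By expressed allele, 13 of 17 measured maternally expressed genes had a change above 0 (median 0.20), against 45.1% of all measured genes, and 11 of 16 paternally expressed genes had one below 0 (median -0.11), against 54.9% of all. The maternal count includes H19 and Gatm, which passed the minimum through their Tdg -/- values alone. Of all measured genes, 1.82% were higher and 1.63% lower by at least 0.5. Past that limit stood 4 maternal genes, each higher in Tdg -/- cells. Past it too stood 4 paternal genes, of which Zdbf2 was higher and the other 3 lower. That split depends on the pseudocount. With 0.1 in place of 1, the maternal genes Cdkn1c, lower at -0.57, and Gatm, higher at 0.89, were past the limit as well. Many of these genes show allele-specific expression only in some tissues or isoforms, such as placenta or brain. Without them the medians were 0.11 over 7 maternal and -0.14 over 15 paternal genes. Copg2 and H13 are among those left out. Past 0.5 then stood 2 maternal genes, H19 and Grb10, both higher, while 1 paternal gene was higher and 3 were lower. No test of the difference between the alleles was possible.

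**Figure D2:**
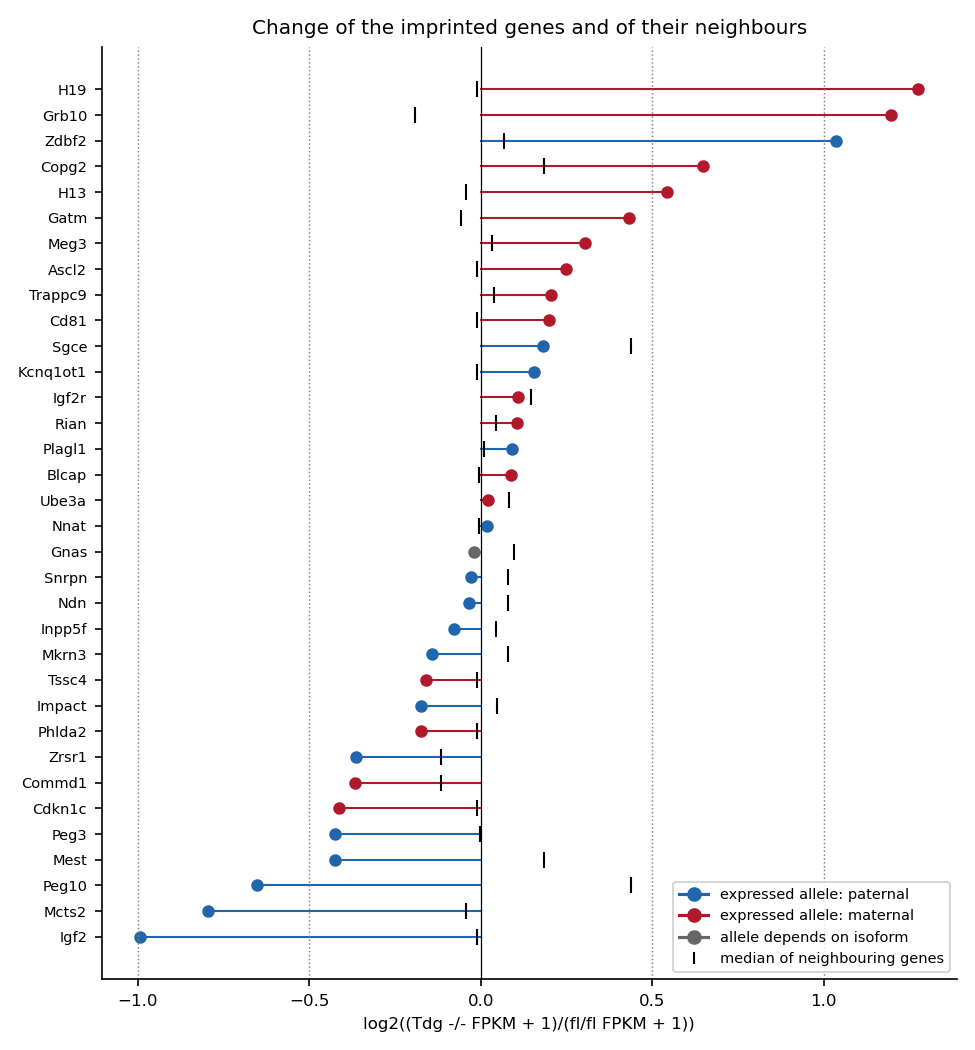
Log2 change of the 34 measured imprinted genes (dots, coloured by expressed allele, horizontal axis) in order of size; the black tick marks the median change of up to 25 neighbouring genes on the same chromosome, and dotted lines mark 0.5 and 1 in each direction. Maternal genes take 4 of the 5 highest places and paternal genes the 5 lowest, and the ticks farthest from 0 belong to Peg10 and Sgce, Grb10, and Mest and Copg2, on chromosomes 6 and 11.

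Among imprinted genes tied to insulin-like growth factor (IGF) signalling, H19, Igf2 and Grb10 differed by more than 0.5, and Igf2r and Plagl1 did not. H19, a maternally expressed long noncoding RNA on chromosome 7 that shares its enhancers with Igf2, was at 0.315 FPKM in fl/fl against 2.18 FPKM in Tdg -/- cells, a change of 1.27. Its level was low in both genotypes, and H19 passed the minimum through its Tdg -/- value alone, so it could only rank as higher. Igf2, the paternally expressed fetal growth factor next to it, was at 11.3 FPKM in fl/fl against 5.17 FPKM in Tdg -/- cells, a change of -0.99. The changes of the pair differed by 2.27 on the log2 scale. Of 12053 measured genes, H19 ranked 8 from the highest and Igf2 ranked 22 from the lowest. The 25 genes nearest to Igf2 had a median change of -0.01 and ranged from -0.78 to 0.24, so both genes lay outside the range of their neighbours. Imprinted genes that are not on the list, such as Tspan32, Slc22a18 and Nap1l4, are among these neighbours.

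Grb10, a maternally expressed adaptor protein that binds the insulin and IGF1 receptors and restrains growth, was at 15.9 FPKM in fl/fl against 37.7 FPKM in Tdg -/- cells. That is 2.37 times the fl/fl value, a change of 1.20 that ranked 10 from the highest. Grb10 lies on chromosome 11, whose 998 measured genes had a median of -0.21. Its 25 neighbours had a median of -0.19 and reached at most 0.35. They include the adjoining genes Ddc (-0.13) and Cobl (0.32), imprinted genes that are not on the list. Relative to the median of the 25 neighbours Grb10 was 1.39 higher. Igf2r, the maternally expressed receptor that takes IGF2 to lysosomes, was at 29.1 and 31.4 FPKM, a change of 0.11 that was close to the 0.15 of its neighbours. Plagl1, a paternally expressed zinc finger transcription factor, was at 26.1 and 27.8 FPKM, a change of 0.09.

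Beyond the imprinted members of the pathway, 11 of 17 listed genes of IGF and insulin signalling were measured, with a median of 0.10. Igfbp4, which binds IGF in the extracellular space, was at 22.7 and 8.64 FPKM, a change of -1.30, and was the only measured one of these 11 that differed by 0.5 or more. It lies on chromosome 11, as does Grb7 (-0.34), a relative of Grb10. The largest positive changes were those of the RNA-binding protein gene Igf2bp2 (0.30) and of the insulin receptor gene Insr (0.27).

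**Figure D3:**
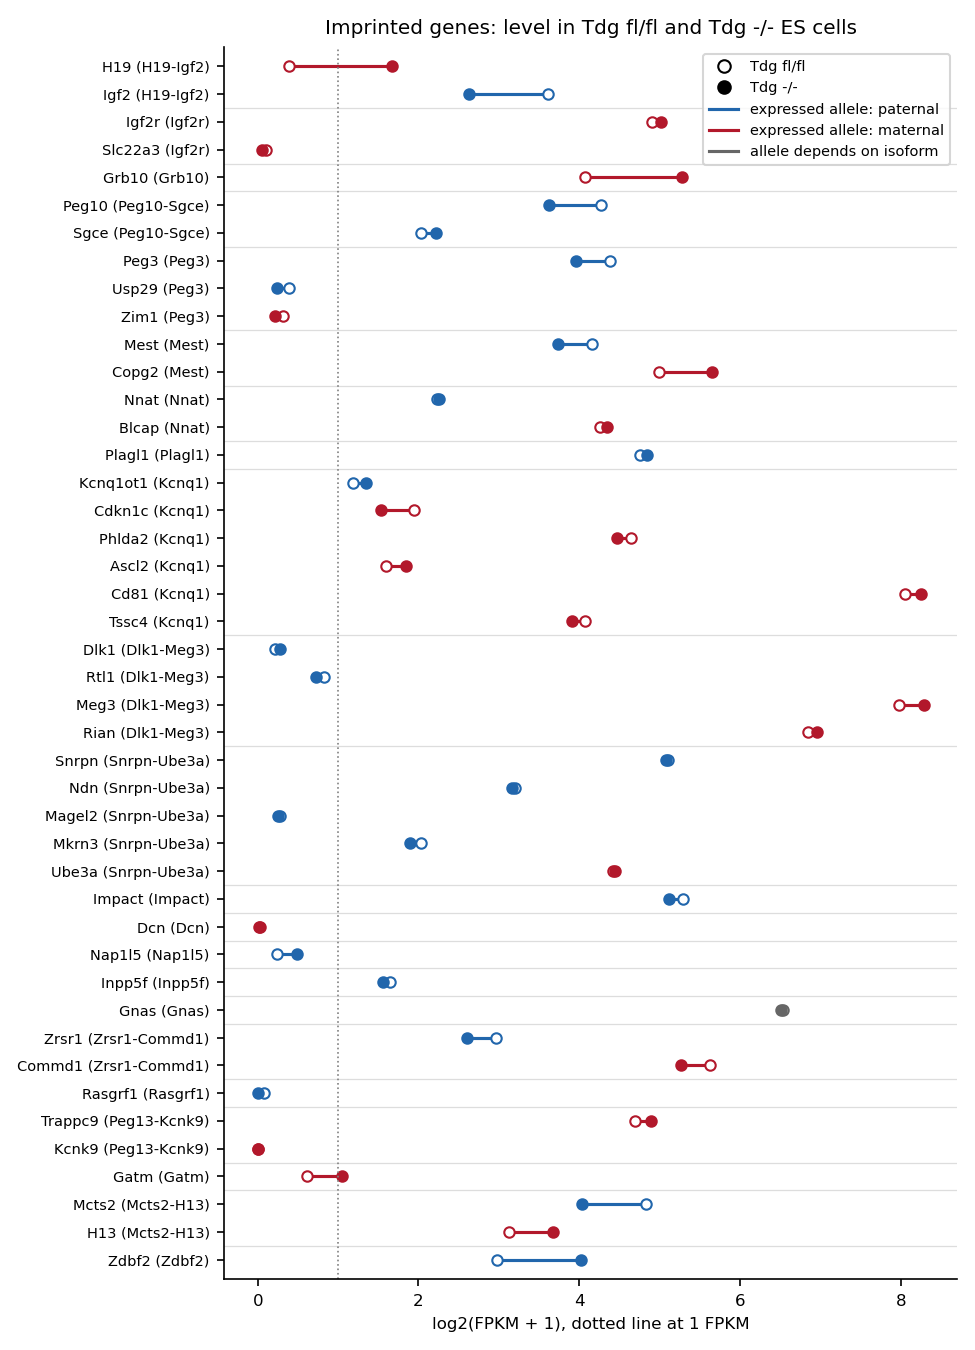
Level of each of the 44 imprinted genes with a value, as log2(FPKM + 1) on the horizontal axis, in Tdg fl/fl (open) and Tdg -/- ES cells (filled), grouped by cluster and coloured by expressed allele. The longest lines belong to H19, Grb10, Zdbf2 and Igf2, while Nnat, Snrpn, Ndn, Ube3a and Gnas have both dots nearly on top of each other.

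Zdbf2, a paternally expressed gene on chromosome 1 whose product carries a DBF-type zinc finger, was at 6.89 FPKM in fl/fl against 15.2 FPKM in Tdg -/- cells. It stood at 2.20 times the fl/fl value, a change of 1.04 that ranked 19 from the highest, and it was the only one of the 16 measured paternal genes that was higher by 0.5 or more. Its 25 neighbours ranged from -0.24 to 0.27. In the early embryo, transcription from a start far upstream of Zdbf2 is known to lead to methylation on the paternal chromosome and to later expression of the gene. The tables do not separate the starts.

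At 2 further places a paternal gene was lower while the maternal gene it overlaps was higher. Mcts2, a paternally expressed retrogene, lies in an intron of H13, which codes for signal peptide peptidase and makes its longer transcripts from the maternal allele. Mcts2 was at 27.4 FPKM in fl/fl against 15.4 FPKM in Tdg -/- cells, a change of -0.79. H13 was at 7.73 and 11.7 FPKM, a change of 0.54. Both lie on chromosome 2, among neighbours with a median of -0.04 that ranged from -0.87 to 0.60, so neither lay outside the neighbours' range. Mcts2 is a near copy of Mcts1, which was at 25.1 and 24.1 FPKM, and since the labels do not state how reads were divided between such copies, the Mcts2 value is uncertain.

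Mest, a paternally expressed gene for a hydrolase-like protein, was at 16.8 FPKM in fl/fl against 12.3 FPKM in Tdg -/- cells, a change of -0.43. Copg2, which codes for a subunit of the COPI vesicle coat and overlaps the end of Mest on the opposite strand, was at 30.9 and 49.1 FPKM, a change of 0.65. Both lie in a stretch of chromosome 6 where most values were above 0. The 12 measured genes before them had a median of 0.48, with 11 above 0. The next genes after them, Mkln1 (0.81) and Podxl (0.26), were above 0 as well, but the 13 genes after them had a median of -0.18, with 3 above 0. Copg2 lay among the values of the first side, and Mest lay below the median of either side. The labels do not say that counting used strand, so reads in overlaps of Mest with Copg2, Mcts2 with H13, Nnat with Blcap, Zrsr1 with Commd1 and Rtl1 with Meg3 and Rian cannot be assigned with certainty.

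Peg10, a paternally expressed gene derived from a retrotransposon and needed for the placenta, also lies on chromosome 6, near its start. It was at 18.3 FPKM in fl/fl against 11.3 FPKM in Tdg -/- cells, a change of -0.65. Its 18 neighbours had a median of 0.44 and none was under -0.32, and relative to their median Peg10 stood at -1.09. Sgce, the paternal gene for epsilon-sarcoglycan whose promoter adjoins that of Peg10, was at 3.10 and 3.66 FPKM, a change of 0.18. With the neighbour median subtracted, Sgce stood at -0.26. Ppp1r9a (0.55) and Casd1 (0.45), imprinted genes next to this pair, are among those neighbours.

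**Figure D4:**
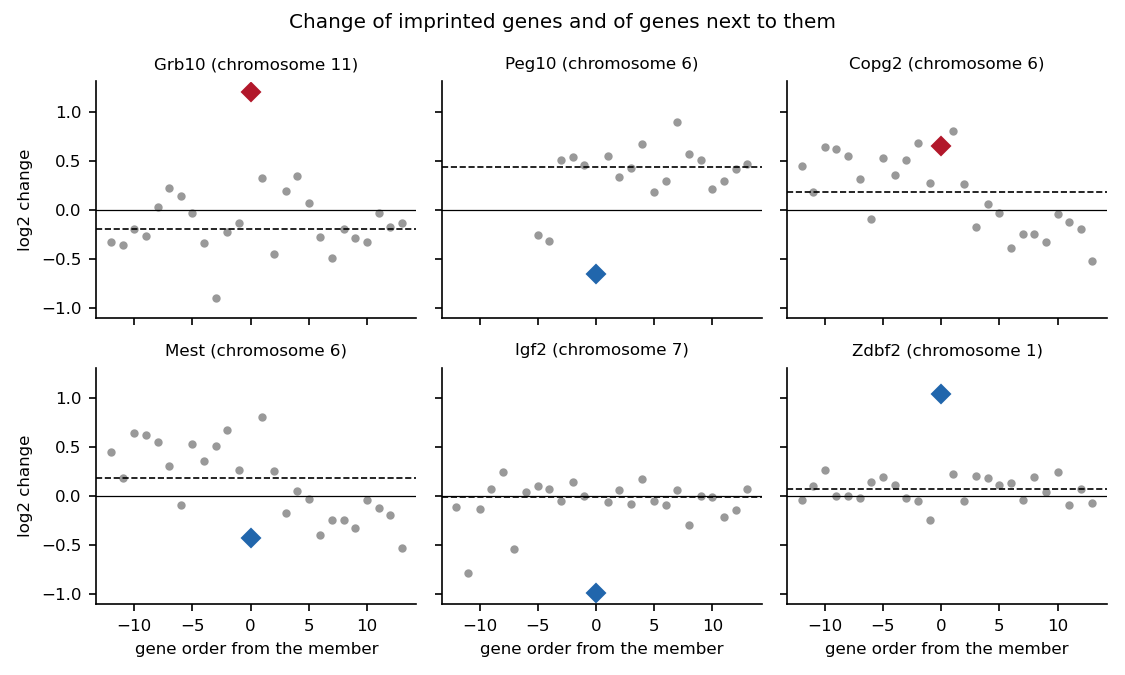
Log2 change of 6 imprinted genes (diamonds) and of the measured genes next to them (grey dots), by gene order along the chromosome on the horizontal axis; the dashed line is the median of the neighbours, the 45 listed genes being left out of the neighbours. Igf2, Grb10, Zdbf2 and Peg10 lie outside the range of their neighbours, Copg2 and Mest lie among them, and the dots before Mest and Copg2 are mostly above 0, as are the first 2 after the pair, while most later ones are below 0.

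Promoter sequences were read for the genes above because the motif TGCCGC is the core of the site that ZFP57 binds when it is methylated. RefSeq windows from 250 bases before to 50 after a start (GRCm38.p6) were found for 36 of the 45 genes, 51 windows in all. TGCCGC, or GCGGCA on the other strand, stood in 14 of the 51 windows (27.5%), against 11.6% of 32851 windows of all genes. Windows can overlap, and the 14 count the same matches of Mest more than once. The windows of imprinted genes were richer in CpG, with a median of 17 against 7. Among windows with at least 10 CpG, 34.2% of 38 windows of imprinted genes and 22.5% of all held the motif. Stretches before the start are printed 5′ to 3′ in the direction of transcription, with the motif in capitals, for Zdbf2, Mest, Mcts2 and Copg2 from the paragraphs above and, to compare, for Plagl1 and Meg3, with changes of 0.09 and 0.30:
Zdbf2, upstream start, chr1:63200193-63200272, + strand: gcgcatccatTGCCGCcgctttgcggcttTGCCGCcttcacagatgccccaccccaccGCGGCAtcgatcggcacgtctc
Mest, chr6:30737800-30737999, + strand: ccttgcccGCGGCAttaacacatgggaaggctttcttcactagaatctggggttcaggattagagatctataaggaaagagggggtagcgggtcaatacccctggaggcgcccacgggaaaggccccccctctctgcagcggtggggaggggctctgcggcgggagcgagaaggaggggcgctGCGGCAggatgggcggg
Mcts2, chr2:152686898-152686997, + strand: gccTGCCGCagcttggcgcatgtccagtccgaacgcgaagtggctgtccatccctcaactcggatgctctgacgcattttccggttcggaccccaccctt
Copg2, chr6:30896865-30896944, - strand: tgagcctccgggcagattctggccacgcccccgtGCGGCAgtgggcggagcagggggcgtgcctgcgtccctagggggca
Plagl1, chr10:13090702-13090781, + strand: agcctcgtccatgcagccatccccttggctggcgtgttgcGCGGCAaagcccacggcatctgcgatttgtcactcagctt
Meg3, chr12:109540776-109540855, + strand: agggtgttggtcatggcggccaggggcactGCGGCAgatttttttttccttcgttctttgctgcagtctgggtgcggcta

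The upstream window of Zdbf2 held 3 matches within 80 bases, and the stretch of Mest held 2. Of the 8 genes that differed by 0.5 or more, 6 had a window, and H19 and Peg10 had none. At least 1 window of 5 of the 6 held the motif, namely Zdbf2, Mcts2, Copg2, Igf2 and Grb10, while the window of H13 held none. Of the 22 other measured genes with a window, 6 held it, namely Mest, Nnat, Snrpn, Plagl1, Commd1 and Meg3. Igf2, Grb10, Nnat, Snrpn and Commd1 held no match that lay wholly within the 250 bases before a start. Igf2, Grb10, Zdbf2, Mest, Snrpn, Commd1, Meg3 and Gnas have several starts and so several windows. Over all genes with a window, 13.1% held the motif in at least 1 of them. These counts per gene were not matched for CpG or for the number of windows. Whether the motif goes with the change, or a window lies in a control region, was not tested. A match is a run of letters and not a measured site, and methylation of these windows was not analysed here.

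**Figure D5:**
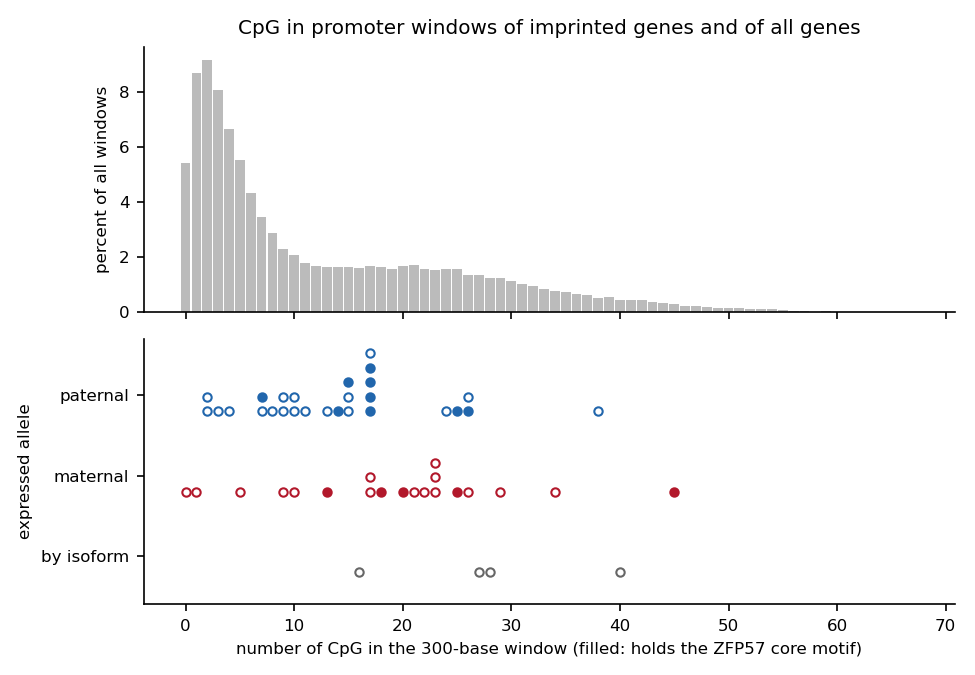
Top, share of all 32851 promoter windows of 300 bases by their number of CpG; bottom, the 51 windows of imprinted genes by number of CpG and expressed allele, filled where the ZFP57 core motif occurs. The median was 20.5 CpG in windows of maternal and 14 in those of paternal genes, against 7 in all windows.

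The measured genes of the remaining clusters differed by less than 0.5. At Peg3, a paternal zinc finger gene on chromosome 7 that acts on growth and maternal care, levels were 19.9 and 14.6 FPKM, a change of -0.43, where 25 neighbours had a median of -0.003. Usp29 and Zim1 of the same cluster were under 1 FPKM. Nnat, a paternal gene for a small membrane protein, was at 3.70 and 3.77 FPKM, and Blcap, whose intron holds it, at 18.1 and 19.3 FPKM, changes of 0.02 and 0.09.

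The Kcnq1 cluster on chromosome 7 is silenced on the paternal chromosome by the noncoding RNA Kcnq1ot1, which was at 1.28 FPKM in fl/fl against 1.54 FPKM in Tdg -/- cells, a change of 0.16. Its maternal genes lay on both sides of 0. Cdkn1c, a cyclin-dependent kinase inhibitor, was at 2.85 and 1.89 FPKM, a change of -0.41. Phlda2, which limits placental growth, was at 24.0 and 21.1 FPKM (-0.17), and Tssc4 at 15.8 and 14.1 FPKM (-0.16). Ascl2, a transcription factor of the placenta, was at 2.02 and 2.59 FPKM (0.25), just above the highest of its neighbours (0.24), and the tetraspanin gene Cd81 at 264 and 303 FPKM (0.20). Their median was -0.16, below the value of Kcnq1ot1.

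The Dlk1-Meg3 cluster on chromosome 12 held the highest noncoding RNA levels of the list. Meg3, a maternal noncoding RNA, was at 251 FPKM in fl/fl against 311 FPKM in Tdg -/- cells, a change of 0.30. Rian, which carries small nucleolar RNAs in its introns, was at 114 and 123 FPKM, a change of 0.11. The paternal genes Dlk1, a Notch ligand relative, and Rtl1, a retrotransposon-derived placental gene, were under 1 FPKM in both genotypes, so the alleles could not be set side by side. Mirg has no row, but the rows of 3 microRNA hairpins that lie inside it do: Mir369 was at 16.5 and 20.05 FPKM and Mir3072 at 3.82 and 3.49 FPKM, while Mir377 was at 1.51 FPKM in fl/fl and listed at 0 in Tdg -/- cells. Such short rows in polyA RNA give host transcripts rather than mature microRNA.

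At Snrpn-Ube3a, the cluster of Prader-Willi and Angelman syndromes on chromosome 7, no measured gene differed by more than 0.15. Snrpn, which codes for a small nuclear ribonucleoprotein, was at 33.5 and 32.9 FPKM (-0.03). Ndn, a gene of the MAGE family, was at 8.19 and 7.97 FPKM (-0.03), and the ubiquitin ligase gene Mkrn3 at 3.09 and 2.71 FPKM (-0.14). Ube3a, a ubiquitin ligase gene that is imprinted in neurons, was at 20.4 and 20.7 FPKM (0.02).

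Across the 7 clusters with measured genes of both alleles, the maternal median was higher than the paternal one by at least 1 at 3. These were H19-Igf2 (2.27), Mcts2-H13 (1.34) and Mest (1.07). At Nnat, Snrpn-Ube3a and Zrsr1-Commd1 the difference lay between -0.003 and 0.07, and at Kcnq1 it was -0.32. The maternal side of H19-Igf2 was H19 alone, which passed the minimum through its Tdg -/- value alone and could only count as higher. H13 and Copg2, the maternal genes at Mcts2-H13 and Mest, are imprinted mainly in some tissues or isoforms. So are those at Nnat, Snrpn-Ube3a and Zrsr1-Commd1. Copg2 also follows a stretch of chromosome 6 where the 12 measured genes before it had a median of 0.48. Zrsr1, a paternal splicing factor retrogene, and Commd1, the gene around it, were both lower on chromosome 11, at 6.80 and 5.06 FPKM (-0.36) and at 48.6 and 37.5 FPKM (-0.37). Their neighbours had a median of -0.11. Zrsr1 is a copy of Zrsr2, which was at 16.7 and 17.2 FPKM, so its value is uncertain too.

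Single genes completed the list. Gatm, the maternal gene for the first enzyme of creatine synthesis, was at 0.529 FPKM in fl/fl against 1.07 FPKM in Tdg -/- cells, a change of 0.43 that passed the minimum through the Tdg -/- value alone. Its 25 neighbours reached at most 0.39. Trappc9, a vesicle trafficking gene, was at 24.8 and 28.8 FPKM (0.21). Impact, a paternal regulator of the translation kinase GCN2, was at 38.1 and 33.7 FPKM (-0.17). Gnas, the gene of the stimulatory G protein alpha subunit, was at 91.4 and 90.1 FPKM (-0.02), with all isoforms in 1 value. Inpp5f, an inositol phosphatase gene of which only a short isoform is imprinted, was at 2.12 and 1.96 FPKM (-0.08).

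The 10 genes under 1 FPKM in both genotypes were Slc22a3, Usp29, Zim1, Dlk1, Rtl1, Magel2, Dcn, Nap1l5, Rasgrf1 and Kcnk9, 6 paternal and 4 maternal. Their highest value was 0.771 FPKM, for Rtl1 in fl/fl cells, and Kcnk9, a potassium channel gene, was listed at 0 in both genotypes. Dcn, a matrix proteoglycan of fibroblasts, was at 0.0226 and 0.0150 FPKM.

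Of the genes that set and keep imprints, 19 of 20 on a list had a row, and all 19 were measured, with a median of -0.055. Dppa3, which shields maternal methylation in the zygote, was at 15.6 FPKM in fl/fl against 6.77 FPKM in Tdg -/- cells, a change of -1.09, and the other 18 lay within 0.25. Next in size were Mbd3 (-0.17), Hells (-0.13) and the methyltransferase gene Dnmt3b (-0.13). Zfp57 was at 382 and 370 FPKM and Trim28 at 380 and 351 FPKM. Among 38 further imprinted genes, 21 were measured, with a median of 0.01 and 1 of them past 0.5, Ppp1r9a. Of all measured genes, 1.82% were higher and 1.63% lower by at least 0.5. Ppp1r9a is among the chromosome 6 neighbours of Peg10, whose median was 0.44. Behind Ppp1r9a came Dio3 (-0.47), a thyroid hormone deiodinase gene next to Dlk1-Meg3, Casd1 and Ampd3 (0.44).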

How the data were processed

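Expression came from 2 tables of FPKM that the authors deposited, 1 value per gene symbol and genotype; per the submitters' processing notes TopHat 1.4.1, Cufflinks 1.3.0 and the mm9 build were used in the series. The labels do not say how the 2 libraries of a genotype were combined. Rows of 1 symbol were summed, which left 20286 symbols from 20437 rows in each table. A change is the log2 ratio of FPKM + 1, and genes with at least 1 FPKM in either genotype were measured. Genes were ordered along chromosomes by RefSeq (GRCm38.p6), which placed 20120 symbols, 18020 of them by symbol and 2100 by a synonym; the neighbours of a gene are the 12 measured genes before and 13 after it that are not on the list. RefSeq holds all 45 genes. Every listed gene is named; of the lists of further imprinted genes, imprint keeping and IGF signalling, up to 4 genes with the largest change, and of any list those changed by at least 1. Stmn2, Mkln1, Podxl, Zfp57, Trim28, the gene copies, rows inside Mirg and markers listed at 0 were added after their values were seen. So were Neurog1, Sox1, Dppa5a, Ddc, Cobl, Tspan32, Slc22a18 and Nap1l4. The overlap of genes was read from RefSeq spans. The calculations ran in Python 3.11.15 with pandas 2.3.3 and were tested on simulated data. The 8 lists of 5fC, 5hmC and p300 regions give mm9 positions without gene names and were not used here. The genes and lists were chosen with earlier results of these data known.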

Additional observations from a re-analysis of the deposited data

How the results depend on the processing

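No paired analysis was possible because each genotype has 1 combined value per gene; for the same reason no library could be left out. With a pseudocount of 0.1 in place of 1, 1 of the 34 measured genes had a change of -1 or less (Igf2, at -1.11), and H19 stood at 2.46 and Gatm at 0.89. By at least 0.5, 6 genes were then higher and 4 lower, Gatm and the maternal gene Cdkn1c (-0.57) being added. Shares of all measured genes were not counted at this pseudocount. With a minimum of 5 FPKM the median of paternal genes was -0.36. With the neighbour median subtracted, 1 gene had a change of -1 or less (Peg10, at -1.09), and Zdbf2 fell under 1 (0.97). By at least 0.5, 4 genes were then higher and 4 lower. Copg2 fell under that limit (0.47), and Mest joined the lower ones (-0.61). Shares of all measured genes were not counted in this setting. The median over all measured imprinted genes was -0.083 and that of paternal genes -0.22, and Sgce stood at -0.26. Without genes imprinted mainly in some tissues or isoforms, 3 of 22 were higher by at least 0.5, beside 5 of 34 in the main setting. The same count, 3, now of 24, was found without genes that overlap another listed gene, an alternative chosen after seeing the data. Scaling to the same total, quantile normalization, the highest row of each symbol, no minimum and leaving out chromosome 11 kept every count within 1.5 times and every median within 0.1; scaling moved the median of all measured genes to 0.04. None of the 8 genes past 0.5 changed sign under the alternatives run on single genes. H19 and Gatm, at 0.315 and 0.529 FPKM in fl/fl cells, passed the minimum in 1 genotype only, and the depth behind these values is unknown.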
